A study of Mus musculus with 18 samples.

Results

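Aminoacyl-tRNA synthetases are the enzymes that join each amino acid to its tRNA. Their mRNAs were followed in mouse lung as a family of 37 named genes, 21 for enzymes of the cytosol and 16 for enzymes that work in the mitochondrion. The members were the rows of the gene table that carry 1 of these names, with a final 1 ignored, so that Mars1 was read from the row Mars. In all, 36 of the 37 were listed among 13384 genes, 21 cytosolic and 15 mitochondrial. Pars2 was not analysed here. Gars and Kars each make an enzyme for both compartments from 1 gene and were counted as cytosolic. Tarsl2 is a cytosolic threonine enzyme although its symbol ends in 2.

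The study compared 3 groups of mice with 3 mRNA and 3 tRNA-derived small RNA (tsRNA) libraries each, 18 libraries in all. The BMSC-treated mice were animals of the COPD model that received 4000000 BMSCs, which the labels class as mesenchymal stem cells, with 100 µl of phosphate-buffered saline through a tail vein. The COPD model mice had been exposed to cigarette smoke and injected intraperitoneally with cigarette smoke extract to induce a disease like chronic obstructive pulmonary disease, and they received saline in place of cells. The control mice received saline. Strain, age and sex were not among the labels used here, and the labels do not say whether each library came from its own animal, so the tests measure the spread between these libraries. Lung pieces are mixtures, and fewer cells of a type cannot be told apart from less RNA per cell.

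Synthetases fall into a pair of structural classes that share no fold. Most are specific for a single amino acid, so a shortfall of such an enzyme can leave its own codons short of charged tRNA. In the cytosol several of them sit together in the multisynthetase complex, and uncharged tRNA switches on the kinase GCN2 and through it the transcription factor ATF4, which induces genes of amino acid supply and many cytosolic synthetase genes. The mitochondrial enzymes are encoded in the nucleus, imported, and charge the tRNAs that read the few mRNAs of the mitochondrial genome, which encode respiratory chain subunits. Wars is known as an interferon-inducible member of the family.

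Promoters were searched because ATF4 acts on such genes through a composite C/EBP-ATF element. The letters TGATGNAA were sought on both strands in the RefSeq windows of build GRCm38.p6, which run from 250 bases before to 50 bases after an annotated start. Windows were found for 28 members, 14 of each class. Several members, among them Cars and Wars, had no window, so their promoters were not searched. The letters were present in 5 of the 14 cytosolic members and in 0 of the 14 mitochondrial members, against 3.97% of 32851 windows and 4.51% of 27025 genes. For each gene the match nearest to an annotated transcript start, which need not be the outermost start of the gene, is printed below in a window of 30 bases, 5′ to 3′ on the strand of the gene, with the matched letters in capitals. Since the read strand is that of the gene, TTGCATCA and TTTCATCA are matches on the opposite strand.
Aars (chr8:111033840-111033869, plus strand): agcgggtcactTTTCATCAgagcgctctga
Gars (chr6:55037960-55037989, plus strand): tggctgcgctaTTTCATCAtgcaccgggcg
Iars (chr13:49682126-49682155, plus strand): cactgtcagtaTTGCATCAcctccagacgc
Tars (chr15:11399655-11399684, minus strand): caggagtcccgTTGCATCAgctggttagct
Yars (chr4:129189895-129189924, plus strand): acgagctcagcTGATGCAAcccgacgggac
The printed matches of Gars and Tars began 30 and 15 bases before that transcript start, and those of Aars, Iars and Yars began at bases 10, 8 and 4 counted from it. Counted from the outermost RefSeq start of the gene, the match of Aars began at base 6074, well inside the gene, and that of Yars at base 173, while the other 3 positions were the same. A match is a string of letters in a window, and binding was not measured. The cAMP response element TGACGTCA was in 0 of the 28 members, against 1.79% of all windows. The CCAAT box, whose letters occur in neither of the other motifs, was in 13 of the 28 members, against 37.4% of windows and 41.1% of genes. Both were sought on both strands.

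Expression is given as FPKM, fragments counted per length of transcript and per size of library, which allows levels of different genes to be set side by side. The cytosolic enzymes were the more abundant class. The highest was Nars, the asparagine enzyme, at 7.98, 24.6 and 25.9 FPKM in the BMSC-treated libraries, 30.2, 39.2 and 40.7 FPKM in the COPD model libraries and 13.7, 28.1 and 30.0 FPKM in the control libraries. Hars, Gars and Dars, which charge histidine, glycine and aspartate tRNAs, followed with medians over the 9 libraries of 16.3, 15.0 and 14.1 FPKM. Medians of the other cytosolic members lay between 1.74 FPKM for Farsa, a phenylalanine enzyme subunit, and 9.33 FPKM for Rars, the arginine enzyme, except Tarsl2 at 0.742 FPKM.

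Neighbours in this order were mostly not separated. Of 20 neighbouring pairs of cytosolic members ranked by their median, 2 kept their order in 9 of 9 libraries, Nars above Hars and Gars above Dars. Gars was at 2.70, 13.6 and 15.0 FPKM in BMSC-treated libraries, at 15.8, 21.3 and 22.9 FPKM in COPD model libraries and at 6.78, 14.2 and 17.0 FPKM in control libraries. Kars, the lysine enzyme, was at 2.62, 7.79 and 8.62 FPKM in BMSC-treated libraries, 9.01, 8.20 and 10.4 FPKM in COPD model libraries and 4.94, 8.30 and 7.50 FPKM in control libraries. For both genes the lowest of the 9 values was BMSC-treated 1.

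**Figure D1:**
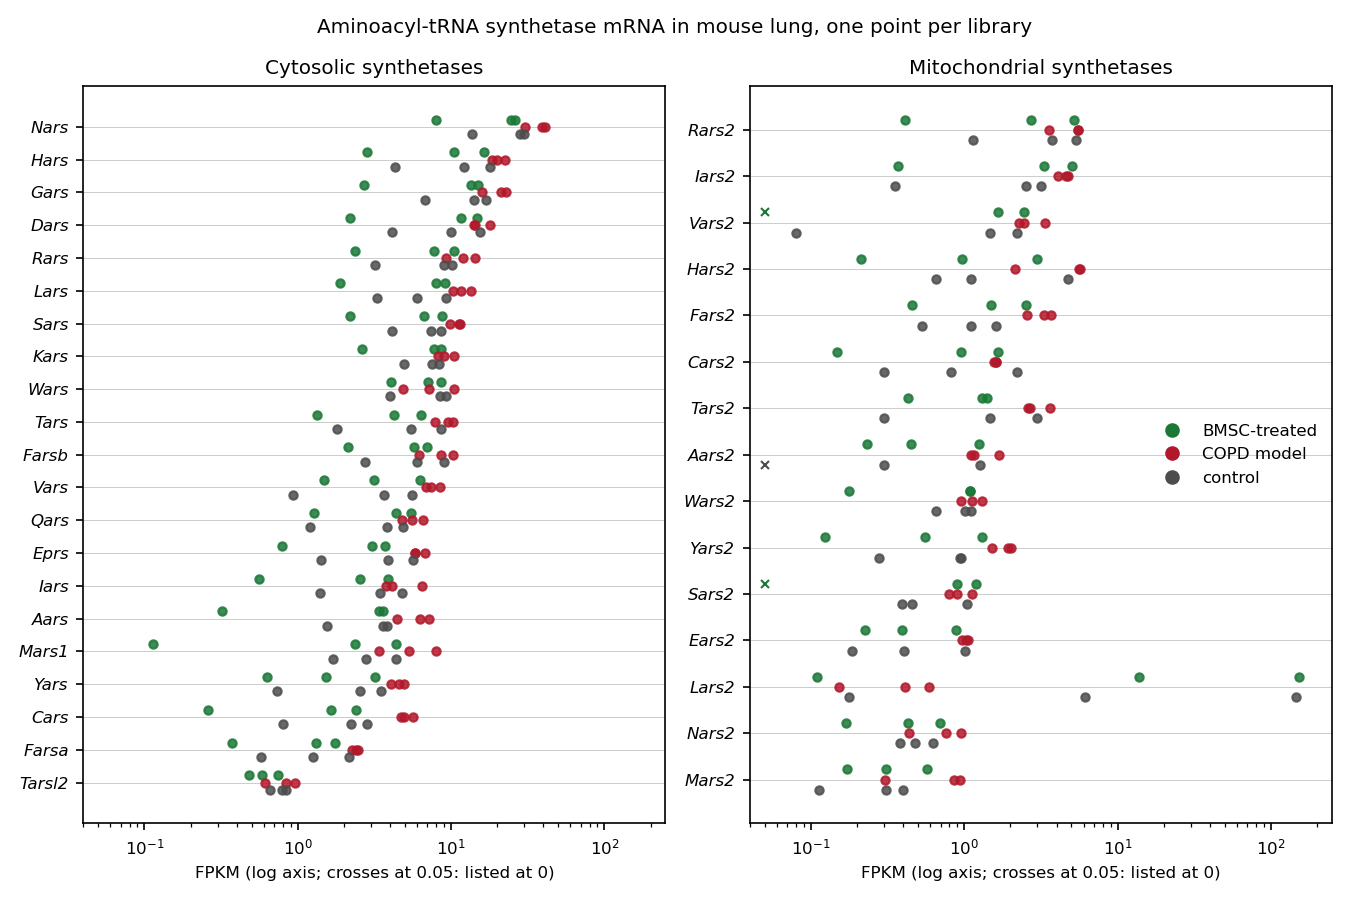
FPKM of each listed synthetase on a log axis, 1 point per library, with BMSC-treated above, COPD model in the middle and control below in each row. Genes are ordered by their median over the 9 libraries, crosses at 0.05 mark values listed at 0, and Lars2 spans 0.110 to 153 FPKM while Nars spans 7.98 to 40.7 FPKM.

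Tarsl2, the lowest cytosolic member, was at 0.484, 0.587 and 0.742 FPKM in the BMSC-treated libraries, 0.841, 0.608 and 0.962 FPKM in the COPD model libraries and 0.790, 0.656 and 0.834 FPKM in the control libraries. Its groups overlapped. It stayed below 1 FPKM in every library and was not tested. Its paralog Tars, which charges the same tRNAs, had a median of 6.33 FPKM.

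The mitochondrial enzymes were mostly below 5 FPKM. Lars2 had the highest mean, through single libraries described further on. Rars2, the arginine enzyme, had the highest median and was at 0.411, 2.72 and 5.21 FPKM in BMSC-treated libraries, 3.55, 5.54 and 5.53 FPKM in COPD model libraries and 1.13, 3.74 and 5.38 FPKM in control libraries. Mars2, the methionine enzyme, was lowest, at 0.171, 0.309 and 0.568 FPKM in BMSC-treated libraries, 0.303, 0.856 and 0.940 FPKM in COPD model libraries and 0.113, 0.308 and 0.397 FPKM in control libraries. For both genes the groups overlapped. Of 14 neighbouring pairs, 2 kept their order in 9 of 9 libraries.

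For 14 amino acids both classes were listed, and the cytosolic enzyme was above the mitochondrial one in all 9 libraries for 11 of them, counting Val, Ser and Ala, where the mitochondrial enzyme was listed at 0 in 1 library each. By the median over libraries the widest gap was that of asparagine, where Nars was 28.9 to 74.2 times Nars2. The narrowest was that of isoleucine, where Iars was 0.766 to 3.96 times Iars2 and exceeded it in 5 of 9 libraries. The other exceptions were methionine, with Mars1 above Mars2 in 8 libraries, and leucine, with Lars above Lars2 in 5.

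The libraries differed in ways that touch every member. Transcripts of the mitochondrial genome took 55.6% to 92.2% of the FPKM in BMSC-treated libraries, 23.9% to 30.0% in COPD model libraries and 46.9% to 89.3% in control libraries. Scgb1a1, the secretoglobin of club cells, took 1.32% to 6.27%, 33.0% to 39.2% and 1.02% to 19.0% in the same groups. BMSC-treated 1 and control 1 stood apart, with 1193 and 1038 genes listed at 0 against 107 to 201 in the others, and they held the 3 zeros of the family, Vars2 and Sars2 in BMSC-treated 1 and Aars2 in control 1. The lung epithelial list was present in all libraries, with 11 of 11 markers listed. The 10 markers other than Scgb1a1 summed to 1459 to 6205 FPKM in BMSC-treated, 9716 to 11188 FPKM in COPD model and 1468 to 8846 FPKM in control libraries. The median log2 change over all genes was 0.66 in COPD model against control and -0.75 in BMSC-treated against COPD model. These medians were 0.14 and -0.15 once FPKM were rescaled to an equal sum outside Scgb1a1 and the mitochondrial genome, and 0.30 and -0.31 on the FPKM as deposited without control 1 and BMSC-treated 1. The summed cytosolic synthetases were 0.0876%, 0.102% and 0.0875% of that remaining FPKM in BMSC-treated libraries, 0.0935%, 0.108% and 0.115% in COPD model libraries and 0.102%, 0.102% and 0.101% in control libraries. The cytosolic share of the rest of the transcriptome thus overlapped between COPD model and control.

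The first comparison, COPD model against control, asks what the smoke model does to the family. No synthetase passed the test. Of 33 members tested, 20 cytosolic and 13 mitochondrial, 0 were called higher and 0 lower by limma at an adjusted p under 0.05, where 0.034% of all genes were called higher and 0.0425% lower. At an unadjusted p under 0.05 there was 1 member higher, Fars2, and 1 lower, Lars2, against 6.36% and 0.229% of all genes. The groups' FPKM did not overlap for 14 members, all higher in COPD model, which is 42.4% of the members against 23.7% of all genes, and 0 members were lower without overlap, against 0.314%. Members had a log2 change above 0 in 32 of 33 cases, against 94.4% of all genes. The cytosolic median was 0.73 and the mitochondrial median 0.69, beside 0.66 for all genes, which are differences of 0.07 and 0.03. Between libraries of a group, the class median relative to that of all genes had an SD of 0.10 and 0.25. That SD is between single libraries, so it is not the error of these differences between group means. After rescaling, 8 of 29 members changed sign, 7 of them cytosolic. Cars, Fars2 and Vars were then higher at an unadjusted p under 0.05, which is 10.3% of the members against 2.76% of all genes, and 0 were lower, against 1.83%.

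Cars, the cysteine enzyme, had the smallest p of the cytosolic class. It was at 4.72, 5.61 and 4.96 FPKM in COPD model libraries, against 0.805, 2.23 and 2.83 FPKM in control libraries. All COPD model values were above all control values. The log2 change was 1.11 ± 0.57 (SE), with an adjusted p of 0.514 in limma, and 0.57 after rescaling, with an adjusted p of 0.744.

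Vars, the valine enzyme, was at 6.87, 8.46 and 7.42 FPKM in COPD model libraries, against 0.936, 3.63 and 5.58 FPKM in control libraries. Yars, the tyrosine enzyme, was at 4.03, 4.90 and 4.60 FPKM in COPD model libraries, against 0.729, 2.56 and 3.50 FPKM in control libraries. In neither gene did the groups overlap. The log2 changes were 1.14 for Vars and 0.86 for Yars, with adjusted p of 0.514 for each in limma. They were 0.63 and 0.46 without control 1, and 0.57 and 0.35 after rescaling.

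Among mitochondrial enzymes, Fars2, which charges phenylalanine tRNA, was at 3.31, 3.69 and 2.58 FPKM in COPD model libraries, against 0.529, 1.10 and 1.62 FPKM in control libraries. The groups did not overlap. Its log2 change was 1.03 ± 0.50 (SE), adjusted p 0.514 in limma, and 0.56 after rescaling. Aars2, the alanine enzyme, was at 1.16, 1.11 and 1.69 FPKM in COPD model libraries, against 0, 0.300 and 1.26 FPKM in control libraries. Its groups overlapped, and its log2 change was 0.69 with an adjusted p of 0.514 in limma, and 0.43 without control 1.

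**Figure D2:**
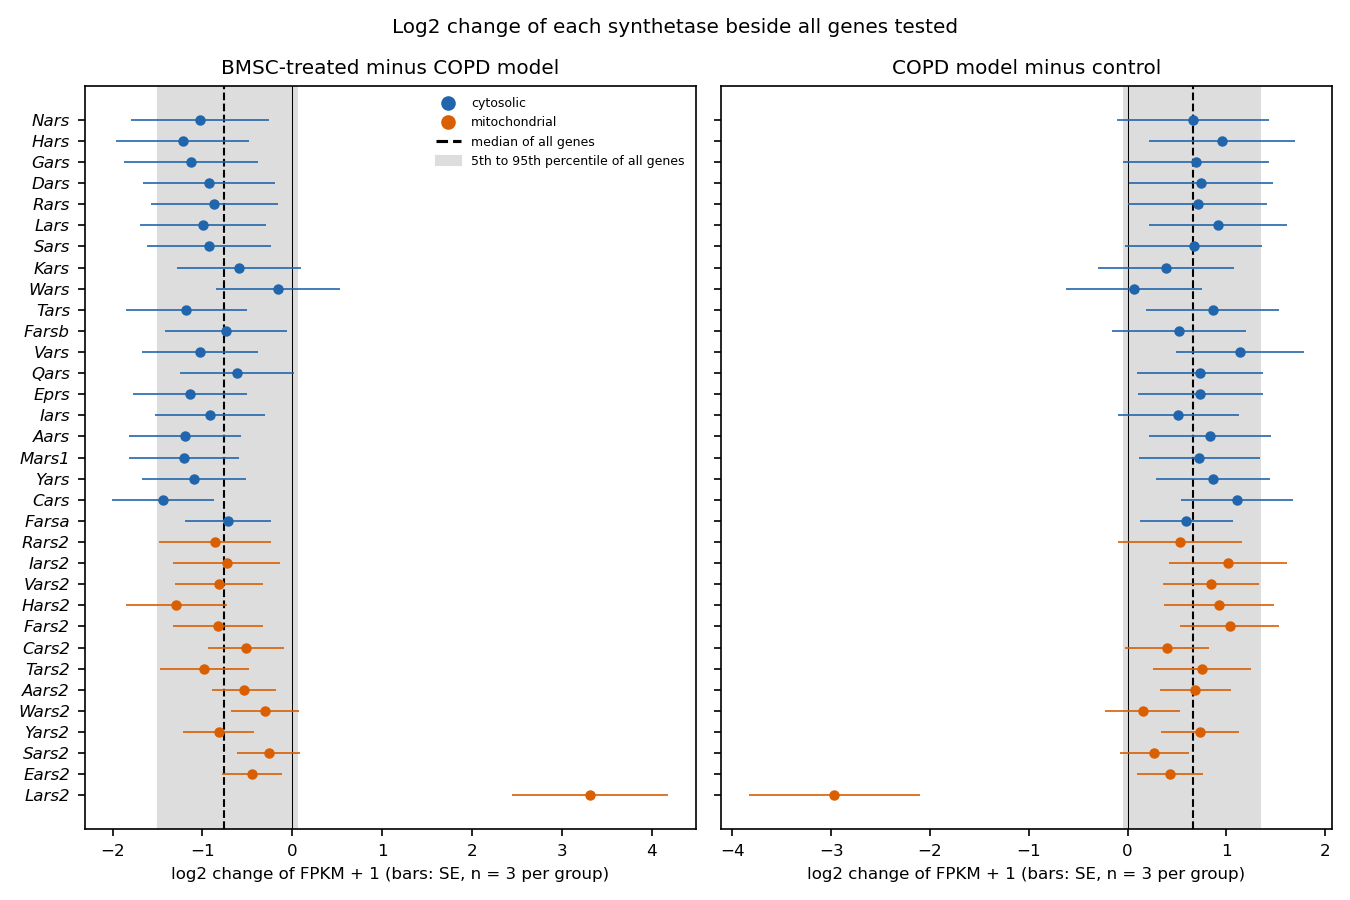
Log2 change of FPKM + 1 for each tested synthetase (point) with its SE (bar, 3 libraries per group), cytosolic in blue and mitochondrial in orange. The dashed line is the median of all genes, -0.75 on the left and 0.66 on the right, and the grey band their 5th to 95th percentile. Lars2 lies outside the band in both panels.

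The BMSC-treated libraries were then set against the COPD model libraries, which asks whether the cells change the family in diseased lung. This comparison shares the COPD model libraries with the first, so opposite changes in the 2 are not independent. Again 0 of 33 members were called higher and 0 lower in limma, against 0.068% and 0.0595% of all genes. At an unadjusted p under 0.05, Lars2 was higher and Cars, Hars2 and Yars2 were lower, which is 3.03% and 9.09% of the members against 0.306% and 10.8% of all genes. FPKM did not overlap for 16 members, all lower in BMSC-treated, or 48.5% against 31% of all genes, and 0 members were higher without overlap, against 0.272%. A log2 change above 0 was seen for 1 member, Lars2, or 3.03% against 5.93%. The cytosolic median log2 change was -1.01 and the mitochondrial one -0.73, beside -0.75 for all genes. The cytosolic difference from all genes was -0.25, and 15 of 20 cytosolic members lay below the median of all genes. The SD of 0.10 given above is between single libraries, so it is not the error of this difference between group means. The difference was -0.10 after rescaling, with 12 of 20 below, and -0.13 without control 1 and BMSC-treated 1. It was also -0.13 with log2(FPKM + 0.1) in place of log2(FPKM + 1). Within the cytosolic class the 8 members that sit in the multisynthetase complex had a median of -0.92 and the 12 outside it -1.06. After rescaling 4 of 29 members changed sign, Farsb, Kars, Qars and Wars. Cars, Eprs and Yars2 were then lower at an unadjusted p under 0.05, which is 10.3% of the members against 4.58% of all genes, and 0 were higher, against 3.51%.

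Cars again had the smallest p of its class. It was at 0.260, 1.65 and 2.40 FPKM in BMSC-treated libraries, against 4.72, 5.61 and 4.96 FPKM in COPD model libraries. Every BMSC-treated value was below every COPD model value. The log2 change was -1.44 ± 0.57 (SE), with an unadjusted p of 0.0128 and an adjusted p of 0.375 in limma, and it was -0.91 after rescaling, with an adjusted p of 0.548.

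Mars1, the methionine enzyme, was at 0.114, 2.37 and 4.38 FPKM in BMSC-treated libraries, against 3.37, 5.35 and 7.96 FPKM in COPD model libraries. Its groups overlapped. Aars, the alanine enzyme, was at 0.322, 3.38 and 3.61 FPKM in BMSC-treated libraries, against 4.44, 6.22 and 7.13 FPKM in COPD model libraries. Its groups did not overlap. Log2 changes were -1.21 for Mars1 and -1.19 for Aars, adjusted p 0.375 for each in limma. Without BMSC-treated 1 they were -0.56 and -0.61. Aars has a promoter match printed above, and the other 4 genes with a match, Yars, Tars, Gars and Iars, had log2 changes of -1.09, -1.18, -1.13 and -0.92. The median of all cytosolic members tested was -1.01. After rescaling Aars was at -0.65 and these 4 at -0.48, -0.44, -0.29 and -0.32, beside a cytosolic median of -0.25. A link between match and change was not tested.

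Hars2, the mitochondrial histidine enzyme, was at 0.211, 0.962 and 2.97 FPKM in BMSC-treated libraries, against 2.13, 5.70 and 5.56 FPKM in COPD model libraries. The groups overlapped, and the log2 change was -1.29 with an adjusted p of 0.375 in limma. Hars and Hars2 lie head to head on chromosome 18 and share 4 bases at their starts, so a few reads could count for either gene. Yars2, the mitochondrial tyrosine enzyme, was at 0.124, 0.558 and 1.31 FPKM in BMSC-treated libraries, against 1.92, 1.51 and 2.03 FPKM in COPD model libraries. These groups did not overlap, and the log2 change was -0.82 with an adjusted p of 0.375 in limma.

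The BMSC-treated libraries were also set against control. Here 0 of 33 members were called higher and 0 lower in limma, as 0% of all genes were in each direction, and 0 members reached an unadjusted p under 0.05, against 0.28% of all genes higher and 0.127% lower. FPKM overlapped for all 33 members, while 0.178% of all genes were higher without overlap and 0.382% lower. After rescaling 0 of 29 members reached an unadjusted p under 0.05, against 1.58% of genes higher and 0.836% lower. The cytosolic median log2 change was -0.24 and the mitochondrial one -0.02, beside -0.10 for all genes.

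Mars1 was at 0.114, 2.37 and 4.38 FPKM in BMSC-treated libraries, against 1.70, 2.79 and 4.38 FPKM in control libraries, a log2 change of -0.48. Eprs, a fused enzyme for glutamate and proline, was at 0.790, 3.07 and 3.69 FPKM in BMSC-treated libraries, against 1.42, 3.88 and 5.69 FPKM in control libraries, a log2 change of -0.40. In the COPD model libraries Eprs was at 5.84, 5.81 and 6.80 FPKM, above all values of both other groups. Iars, the isoleucine enzyme, was at 0.557, 2.55 and 3.86 FPKM in BMSC-treated libraries, against 1.40, 3.46 and 4.77 FPKM in control libraries, a log2 change of -0.40. Its mitochondrial counterpart Iars2 was at 0.371, 3.33 and 5.03 FPKM in BMSC-treated libraries, against 0.355, 2.51 and 3.18 FPKM in control libraries, a log2 change of 0.28. Hars2 and Rars2 had log2 changes of -0.36 and -0.33. The adjusted p of all 6 was 1 in limma. Same-numbered libraries of these groups were also read as pairs. No label gives these pairs, and the same values from which they were inferred do not establish them. Within these pairs, Iars2 was higher in BMSC-treated in 3 of 3. The other 5 were lower in 3 of 3, Mars1 in pair 3 by a difference too small to show in its rounded values. In all, 12 of 33 members were lower in 3 of 3 pairs, or 36.4% against 21.2% of all genes, and 2 were higher, Iars2 and Qars, or 6.06% against 5.1%. These counts were added after the values were seen and use FPKM as deposited. Mitochondrial transcripts took 92.2%, 70.8% and 55.6% of it in BMSC-treated libraries 1, 2 and 3, against 89.3%, 65.1% and 46.9% in control libraries. Each of the 6 changed sign when 1 single library was left out, which breaks a pair, and kept its sign without pair 1, BMSC-treated 1 and control 1, at -0.083 for Mars1, -0.29 for Iars, -0.39 for Eprs, -0.32 for Hars2, -0.20 for Rars2 and 0.42 for Iars2.

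Shares within the family do not depend on how a library was scaled, so each gene was also expressed as a percentage of the summed cytosolic synthetase FPKM of its library. Cars made up 0.672%, 1.24% and 1.46% of that sum in BMSC-treated libraries, 2.59%, 2.71% and 2.07% in COPD model libraries and 1.26%, 1.55% and 1.57% in control libraries. All COPD model shares were above all others, with an exact two-sided permutation p of 0.1 against control and of 0.1 for BMSC-treated against COPD model, the smallest that 3 against 3 libraries allow. COPD model shares lay above control without overlap for 5 members, Cars, Lars, Fars2, Iars2 and Yars2, and below for 2, Wars and Wars2. That is 15.2% and 6.06% of the members against 6.71% and 5.47% of all genes. By class, 2 of 20 cytosolic and 3 of 13 mitochondrial members lay above, and 1 of each class below. Cytosolic members are part of the sum they are divided by, unlike other genes. Their percentages here and in the next comparisons are therefore not fully comparable with those of all genes. BMSC-treated shares lay above COPD model for Kars and Qars and below for Cars, Eprs, Tars and Tars2, which is 6.06% and 12.1% against 11.8% and 7.39%. BMSC-treated shares lay above control for Fars2 and Qars, 6.06% against 5.56%, and below for 0 members, against 1.11%. Qars, the glutamine enzyme, made up 3.33%, 3.27% and 3.32% in BMSC-treated libraries, 2.61%, 2.67% and 2.75% in COPD model libraries and 1.88%, 2.64% and 2.71% in control libraries.

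**Figure D3:**
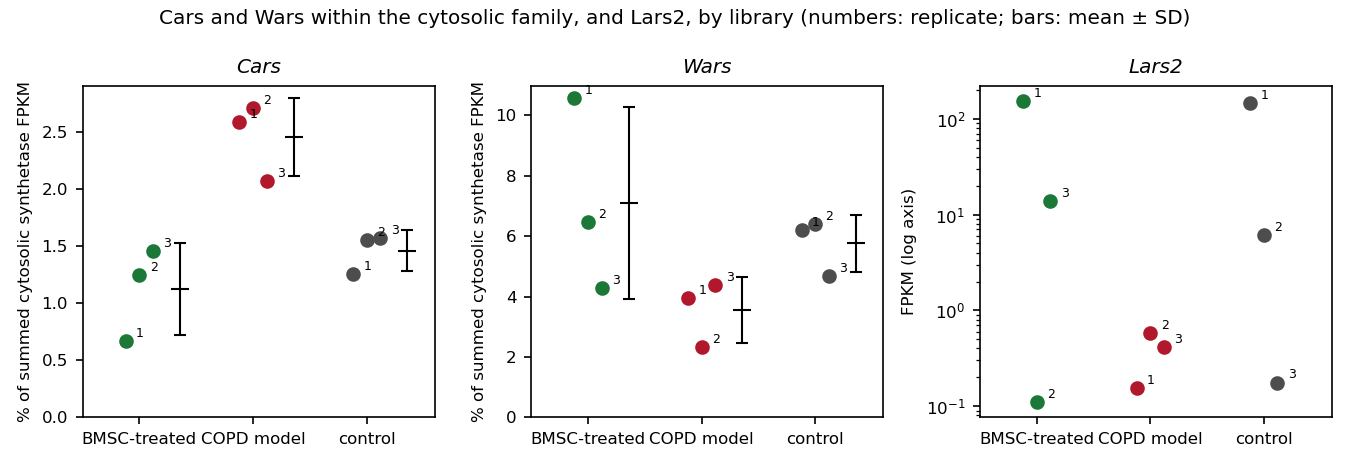
Cars and Wars as a percentage of the summed cytosolic synthetase FPKM of each library, with mean and SD of 3 libraries, and Lars2 in FPKM on a log axis. Cars is at 2.07% to 2.71% in COPD model libraries and at 1.57% or less in the others, and Lars2 is at 153 FPKM in BMSC-treated 1 and 146 FPKM in control 1.

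The genes of the ATF4 amino acid response were read beside Cars. Of 27 listed genes of 28, 24 were tested and 0 were called in any comparison. Their median log2 change was 0.55 in COPD model against control and -0.69 in BMSC-treated against COPD model, close to the 0.66 and -0.75 of all genes. Asns, the asparagine synthetase, was at 0.620, 2.81 and 2.92 FPKM in BMSC-treated libraries, 6.95, 8.90 and 9.05 FPKM in COPD model libraries and 1.88, 4.03 and 6.36 FPKM in control libraries. Slc38a2, a transporter of neutral amino acids, was at 2.20, 9.95 and 12.2 FPKM in BMSC-treated libraries, 18.5, 25.5 and 27.4 FPKM in COPD model libraries and 1.45, 9.23 and 18.9 FPKM in control libraries. Asns was highest in all 3 COPD model libraries, while the lowest COPD model value of Slc38a2 was below the highest control value. Slc3a2, a heavy chain of amino acid exchangers, was at 4.36, 18.4 and 20.7 FPKM in BMSC-treated libraries, 27.8, 59.9 and 47.3 FPKM in COPD model libraries and 7.16, 18.8 and 30.1 FPKM in control libraries. BMSC-treated values of all 3 genes lay below all COPD model values, as did those of 31% of all genes. Their log2 changes were -1.68, -1.66 and -1.74, adjusted p 0.375 for each in limma. After rescaling the changes were -1.01, -0.84 and -0.87. Sesn2, a leucine sensor, and Vldlr, a lipoprotein receptor, were the other genes of smallest p, with changes of -0.86 for Sesn2 in BMSC-treated against COPD model and 0.87 for Vldlr in COPD model against control, adjusted p 0.375 and 0.514 in limma.

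Wars, the tryptophan enzyme, had the smallest log2 change of the 20 cytosolic members in COPD model against control and in BMSC-treated against COPD model. It was at 4.08, 8.60 and 7.07 FPKM in BMSC-treated libraries, 7.18, 4.82 and 10.5 FPKM in COPD model libraries and 3.97, 9.21 and 8.45 FPKM in control libraries, and all groups overlapped. Its log2 change was 0.06 in COPD model against control and -0.16 in BMSC-treated against COPD model, and after rescaling the signs turned, to -0.58 and 0.66, adjusted p 0.744 and 0.605 in limma. As a share of the cytosolic sum, Wars made up 10.6%, 6.47% and 4.29% in BMSC-treated libraries, 3.94%, 2.33% and 4.39% in COPD model libraries and 6.20%, 6.40% and 4.69% in control libraries. COPD model shares were below all control shares, with an exact two-sided permutation p of 0.1, and overlapped the BMSC-treated ones.

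The interferon gamma targets had a median change of 0.06 in COPD model against control and 0.23 in BMSC-treated against COPD model, 0.60 below and 0.98 above the median of all genes, with 0 of 11 tested genes called in either. Cxcl9, a chemokine that recruits T cells, was at 4.90, 4.33 and 1.53 FPKM in BMSC-treated libraries, 1.08, 0.286 and 0.165 FPKM in COPD model libraries and 2.52, 1.04 and 1.14 FPKM in control libraries. BMSC-treated values were all above the COPD model values, with an unadjusted p of 0.00152 and an adjusted p of 0.347 in limma. Gbp2, an interferon-induced GTPase, was at 12.3, 25.2 and 19.5 FPKM in BMSC-treated libraries, 10.3, 9.79 and 21.4 FPKM in COPD model libraries and 11.2 to 14.2 FPKM in control libraries, and its groups overlapped. Irf1, an interferon-induced transcription factor, had a log2 change of -1.38 in BMSC-treated against COPD model, with an adjusted p of 0.375 in limma. Neutrophil markers, 4 of 4 listed, summed to 157 to 276 FPKM in BMSC-treated, 115 to 260 FPKM in COPD model and 136 to 861 FPKM in control libraries. T cell markers, 3 of 3 listed, summed to 2.42 to 13.3 FPKM, 3.16 to 8.66 FPKM and 1.06 to 9.14 FPKM in the same groups. Their part in the values of Wars was not tested.

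**Figure D4:**
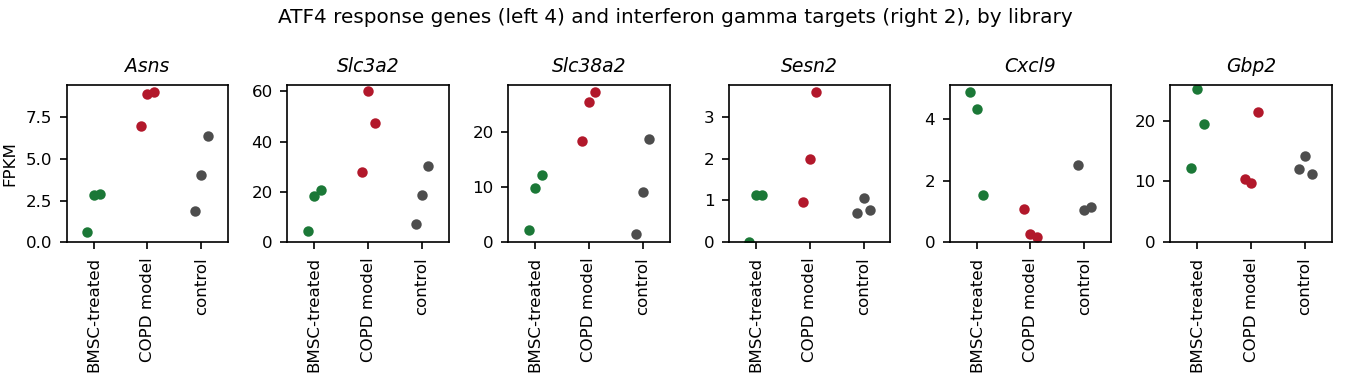
FPKM of ATF4 response genes (Asns, Slc3a2, Slc38a2, Sesn2) and interferon gamma targets (Cxcl9, Gbp2), 1 point per library, 3 libraries per group. Asns is at 6.95 to 9.05 FPKM in COPD model libraries and at 2.92 FPKM or less in BMSC-treated libraries, while Cxcl9 is at 1.53 to 4.90 FPKM in BMSC-treated libraries and at 1.08 FPKM or less in COPD model libraries.

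Lars2, the mitochondrial leucine enzyme, was unlike every other member. It was at 153, 0.110 and 13.8 FPKM in BMSC-treated libraries, 0.153, 0.584 and 0.413 FPKM in COPD model libraries and 146, 6.16 and 0.176 FPKM in control libraries. BMSC-treated and control values overlapped those of the COPD model, and 1 library of each of these groups held most of the signal. The log2 change was -2.97 in COPD model against control, unadjusted p 0.000872 and adjusted p 0.38 in limma, and 3.31 in BMSC-treated against COPD model, unadjusted p 0.000223 and adjusted p 0.114. The SD of Lars2 between libraries of a group was 2.89 (log2), and limma, which pulls each gene's spread toward that of other genes, used 1.06. The exact two-sided permutation p of its share was 0.3 and 0.4 in these comparisons.

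The Lars2 calls turned on single libraries. In BMSC-treated against COPD model it was called without control 1, control 2, control 3 or BMSC-treated 2, with adjusted p of 5.45e-06, 0.0146, 0.00191 and 4.39e-06 in limma, and with only the 2 groups in the fit, at 0.000376. Control libraries do not enter this log2 change of 3.31, so leaving 1 of them out altered only the spread that limma used. Without BMSC-treated 1, the library at 153 FPKM, the smallest adjusted p of any member was 0.926 in limma. In COPD model against control Lars2 was called without control 3, at an adjusted p of 3.02e-05 in limma. Without control 1 that change was -1.08 and the adjusted p 0.998 in limma. BMSC-treated 1 and control 1 are the libraries with the most mitochondrial transcripts, 92.2% and 89.3% of FPKM, and the part of this in the value of Lars2 was not tested.

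Because of Lars2, the ratio of summed cytosolic to summed mitochondrial synthetase FPKM was dominated by 1 gene. It was 0.247, 7.93 and 3.92 in BMSC-treated libraries, 6.70, 6.02 and 6.79 in COPD model libraries and 0.422, 6.50 and 6.23 in control libraries. Without Lars2, left out after its values were seen, it was 12.3, 7.98 and 5.85 in BMSC-treated libraries, 6.74, 6.12 and 6.87 in COPD model libraries and 11.6, 9.01 and 6.27 in control libraries. The groups overlapped in either form. The means without Lars2 were 8.72 ± 3.31, 6.58 ± 0.403 and 8.98 ± 2.69 in these groups (SD, n = 3 each), so the COPD model libraries were the most alike. The 4 libraries with the largest share of mitochondrial transcripts held the 4 highest ratios, 7.98 or more against 6.87 or less in the other 5, and the part of that share in the ratio was not tested.

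**Figure D5:**
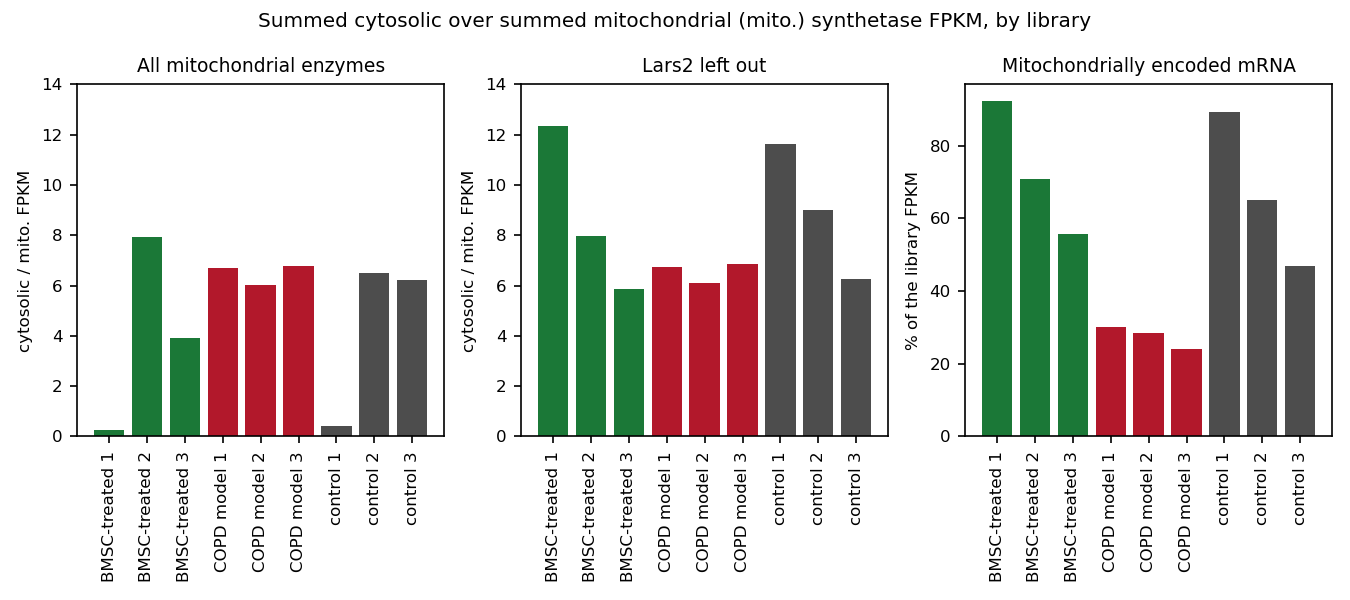
Summed cytosolic over summed mitochondrial synthetase FPKM in each library, with all members (left) and without Lars2 (middle), beside the percentage of FPKM from the mitochondrial genome (right). With Lars2, the ratios of BMSC-treated 1 and control 1 are 0.247 and 0.422, and without it 12.3 and 11.6, the highest of the 9.

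The partners of the synthetases were read in the same fit. The 3 scaffold proteins of the multisynthetase complex, Aimp1, Aimp2 and Eef1e1, had a median change of 0.77 in COPD model against control and -0.73 in BMSC-treated against COPD model. The 3 subunits of the amidotransferase that completes mitochondrial glutamine tRNA after Ears2 has loaded glutamate, Qrsl1, Gatb and Gatc, had medians of 0.70 and -0.62. Of these 6 genes 0 were called. Qrsl1 had an unadjusted p of 0.0489 in BMSC-treated against COPD model, at 0, 0.911 and 1.56 FPKM in BMSC-treated libraries, against 1.74, 2.20 and 2.13 FPKM in COPD model libraries.

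Among 7 genes that edit mischarged tRNA or recycle stalled tRNA, 0 were called in either comparison. Aarsd1, a free editing domain for mischarged alanine tRNA, was at 0.0331, 0.432 and 4.81 FPKM in BMSC-treated libraries, 7.15, 6.02 and 5.32 FPKM in COPD model libraries and 0, 5.49 and 4.78 FPKM in control libraries. It was below all COPD model values in all BMSC-treated libraries, as were 31% of all genes. Its log2 change was -1.80 with an adjusted p of 0.375 in limma, and -1.42 after rescaling. The 3 genes for selenocysteine and formyl-methionine on tRNA, the 7 cytosolic elongation factors and the 10 mitochondrial translation factors had 0 called members, with medians of 0.37, 0.52 and 0.53 in COPD model against control and -0.48, -0.79 and -0.74 in BMSC-treated against COPD model.

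The substrates were seen only as fragments, in the tsRNA libraries, where 193 tsRNAs were listed and 192 could be summed by amino acid and genome into 32 classes. CPM, the counts of a class scaled to mapped reads, did not differ past the test in any comparison. The smallest adjusted p was 1 in COPD model against control, 0.64 in BMSC-treated against COPD model and 0.914 in BMSC-treated against control, in two-sided exact permutation tests adjusted over the 32 classes, whose smallest unadjusted p is 0.1. Cysteine tRNA fragments were at 58.7, 51.3 and 42.3 CPM in BMSC-treated libraries, 69.4, 74.7 and 94.1 CPM in COPD model libraries and 66.9, 43.4 and 69.8 CPM in control libraries, and BMSC-treated lay below COPD model without overlap. Fragments of mitochondrial glutamate tRNA, the substrate of Ears2, were at 31.0, 43.8 and 8.30 CPM in BMSC-treated libraries, 2.28, 5.15 and 5.60 CPM in COPD model libraries and 18.1, 24.1 and 17.5 CPM in control libraries, with COPD model below all others. The mitochondrial glutamate class held 1 tsRNA. Its 2.28 to 5.60 CPM in COPD model libraries rest on few reads, since the totals of these libraries were 893028 to 1942274. The cysteine and mitochondrial glutamate classes were named after their values were seen. In the exact permutation test, 5 of the 32 classes reached the smallest p of 0.1 in BMSC-treated against COPD model. It was reached by 3 classes in COPD model against control and by 1 in BMSC-treated against control. A link between these fragments and the synthetase mRNAs was not tested.

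The most abundant fragment of a mitochondrial tRNA came from the serine tRNA that Sars2 charges, and is shown whole as the substrate end of the mitochondrial class. It lies on chromosome M, is 22 bases long and is written in lower case since no part is singled out.
Mitochondrial serine tRNA fragment: aagaaagattgcaagaactgct
It was at 43566, 89631 and 28382 CPM in BMSC-treated libraries, 29934, 28774 and 46694 CPM in COPD model libraries and 37549, 70455 and 28159 CPM in control libraries, and the groups overlapped. Sars2 mRNA was at 0, 0.902 and 1.20 FPKM in BMSC-treated libraries, 0.793, 0.898 and 1.12 FPKM in COPD model libraries and 0.454, 0.390 and 1.04 FPKM in control libraries, and these groups overlapped too.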

How the data were processed

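Lung mRNA and tsRNA were sequenced in 9 libraries each. The deposited mRNA values are in FPKM, named so in the column headers, which the authors made by dividing by transcript length and library size. Read depth cannot be recovered from them. The tsRNA tables hold read counts as deposited, unnormalized, and CPM, which the authors scaled to each library's reads. Listed tsRNA counts were 440448 to 1742029 per library, of totals of 893028 to 2679933. Per the submitters' processing notes the tools included FastQC, cutadapt, StringTie and Bowtie with build mm10. Tool versions and the use of strand in read assignment are not known here, although the labels' protocols name a stranded kit.

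Genes of at least 1 FPKM in at least 3 of 9 libraries were tested, which left 11765 genes and 33 of the 36 listed members. Tarsl2, Nars2 and Mars2 fell below, and 0 members passed through 1 group only. The log2(FPKM + 1) values of all 9 libraries entered 1 limma 3.58.1 fit (R 4.3.3, mean-variance trend, Benjamini-Hochberg over all genes, call at an adjusted p under 0.05). Changes are on this scale and are compressed for low genes. The fit was also run on simulated data with known changes. These were drawn gene by gene, without the shifts of whole libraries that the real data show. That run therefore cannot tell how the fit handles such shifts. Rescaled FPKM were set to an equal sum outside Scgb1a1 and the mitochondrial genome before the same filter and fit, which left 11248 genes and 29 members. Shares and tsRNA sums were compared by exact permutation tests with Python 3.11.15 and scipy 1.17.1. Of the gene IDs, 32 matched the reference list of symbols, and 36 members had coordinates by symbol in RefSeq (GRCm38.p6), the source of the promoter windows.

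Named genes were the 3 members of smallest p in each class and comparison, the highest and lowest member of each class by mean, Gars, Kars, Eprs, Tarsl2 and Wars, and up to 4 genes of a pathway list by smallest p. Others named in the text were chosen after their values were seen. Members and lists were chosen with earlier results of these data known.

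Same-numbered BMSC-treated and control libraries deviated together (correlations of 0.632, 0.194 and 0.497), so these numbers were taken as pairs, from the data and not from a label. The counts of pairs that agree in sign were added after the values were seen. Those of COPD model with control (-0.0171, 0.178 and -0.171) and of BMSC-treated with COPD model (0.0463, -0.0553 and -0.104) were not. Alternatives were another pseudocount, no filter, rescaled FPKM, only the groups compared, no trend, a replicate block and leaving out libraries.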

Additional observations from a re-analysis of the deposited data

How the results depend on the processing

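Under the alternatives, 170 of the recomputed counts, class medians and ratios stayed close to their reported value and 19 moved, while of the log2 changes of single members 343 kept direction and call, 26 changed sign and 6, all of Lars2, became calls. The cause was not tested. Part of these outcomes was fixed in advance. Log2 changes and class medians cannot move without the trend, with the block or with only the groups compared. Nor can they move without a library of the third group. A BMSC-treated ratio counted as close within its SD of 3.84, beside a mean of 4.03. The tally is therefore not a measure of robustness. The combinations of rescaling with the block or with left-out libraries, and the ratios without Lars2, were chosen after seeing the data. The count of members called was 0 and ranged from 0 to 1 with 1 library left out, in COPD model against control and in BMSC-treated against COPD model. It was 1 in BMSC-treated against COPD model with only these groups in the fit. The mitochondrial median minus that of all genes in COPD model against control was 0.36 with log2(FPKM + 0.1). The cytosolic median minus that of all genes in BMSC-treated against COPD model was -0.13 with log2(FPKM + 0.1), -0.10 rescaled, with or without the block, -0.13 without control 1 and BMSC-treated 1, -0.12 rescaled without both, and -0.27 to -0.13 with 1 library left out. The ratio of cytosolic to mitochondrial FPKM in COPD model was 4.62 as a ratio of geometric means, 5.60 without Gars and Kars, 5.37 without Nars and 3.99 as a ratio of geometric means without Lars2. Without Lars2 it was 8.72 in BMSC-treated and 8.98 in control.

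Wars changed sign most often. In COPD model against control it was -0.58 rescaled, with or without the block, -0.26 without control 1 and BMSC-treated 1, -0.53 rescaled without both, and -0.26 to 0.31 with 1 library left out. In BMSC-treated against COPD model it was 0.66 rescaled, with or without the block, 0.10 without control 1 and BMSC-treated 1, 0.40 rescaled without both, and -0.41 to 0.10 with 1 library left out. In BMSC-treated against control it was 0.077 rescaled, with or without the block, and -0.42 to 0.17 with 1 library left out. There, leaving out 1 library gave -0.97 to 0.16 for Mars1, -0.76 to 0.071 for Iars, -0.82 to 0.026 for Eprs, -0.82 to 0.18 for Hars2, -0.81 to 0.26 for Rars2 and -0.22 to 0.92 for Iars2.

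With a replicate block 0 members were called in any comparison, and the smallest adjusted p of a member in limma was 0.126 in COPD model against control, 0.0706 in BMSC-treated against COPD model and 1 in BMSC-treated against control. In these comparisons 17, 34 and 0 of all genes were called with the block, against 9, 15 and 0 without it. In COPD model against control and in BMSC-treated against COPD model the libraries share only a number. The unknown depth of the mRNA libraries limits what can be said of members below 1 FPKM.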

Other observations

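Lars2 was looked at beside its neighbours and beside other genes high in the same libraries. Of 13384 listed genes, 47 were at 1 FPKM or more in both BMSC-treated 1 and control 1 and over 2 times the highest of the other 7 libraries. Lars2 ranked 1 among them, with a lower value of 146 FPKM against 13.8 FPKM, 10.6-fold, and was the only 1 above 10 FPKM, the next being Dbil5 at 3.27 FPKM. Its neighbours on chromosome 9 were not high in these libraries. Limd1 was at 1.03, 5.53 and 5.39 FPKM in BMSC-treated libraries, 12.2, 8.29 and 1.25 FPKM in COPD model libraries and 0.343, 5.60 and 0.654 FPKM in control libraries. Tmem158 was at 1.34, 3.78 and 6.66 FPKM in BMSC-treated libraries, 6.97, 7.37 and 3.40 FPKM in COPD model libraries and 0, 4.54 and 7.52 FPKM in control libraries.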
